A study of Homo sapiens with 6 samples.

Results

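Chemokines and their receptors are a gene family that directs cell movement, and 66 of its members were found by gene symbol among the 26364 symbols with expression values in an RNAseq experiment on Ewing sarcoma cells. The 66 members comprised 43 ligand genes and 23 receptor genes. Among the ligands were 7 CXC chemokines with the ELR motif (CXCL1, CXCL2, CXCL3, CXCL5, CXCL6, PPBP and CXCL8, also known as IL8), 9 other CXC chemokines, 24 CC chemokines and 3 genes of the C and CX3C classes. Among the receptors were 18 conventional and 5 atypical ones.

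The cells were A673/TR/shEF, a derivative of the A673 Ewing sarcoma line that carries the EWSR1::FLI1 fusion gene and an inducible shRNA directed against the fusion transcript. In the absence of doxycycline these cells keep the fusion (EWSR1::FLI1high, 3 libraries), and with 1 µg/mL doxycycline for 72 h the shRNA is expressed and the fusion is depleted (EWSR1::FLI1low, 3 libraries). All 6 libraries came from this engineered line, which is 1 cell line, and no library received doxycycline without the shRNA, so effects of the drug and of the knockdown cannot be told apart. The design text speaks of independent clones while the sample names number experiments, and p-values therefore measure the spread between these samples, which may be technical. Expression is given in FPKM (fragments normalised to gene length and library size), in the order of replicates 1, 2 and 3 of each condition.

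Chemokines are small secreted proteins, named after the spacing of their first cysteines, that bind receptors of the G protein-coupled class on the surface of the cells they attract. CXC chemokines with the ELR motif act on CXCR1 and CXCR2 and recruit neutrophils, CC chemokines such as CCL2 recruit monocytes and lymphocytes, and CXCL12 guides cells that carry CXCR4 toward bone marrow and other tissues. Conventional receptors signal through inhibitory G proteins, whereas atypical receptors such as ACKR3 bind chemokines without that signal and clear them.

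Several ELR ligand genes and the CXCL10 and CXCL11 genes lie together on chromosome 4, and their promoters are shown because several of them varied together among the EWSR1::FLI1low libraries. A promoter was found in RefSeq (table build GRCh38.p14) for 46 of the 66 members, as the 250 bases before the annotated start. Each stretch below was placed on GRCh37 by its only exact match on the chromosome and is written 5′ to 3′ on the strand of the gene, with capitals marking GGAANTTCC, a palindromic form of the NF-kB motif, or GGGANTTCC, another form searched on both strands. For CXCL3 the stretch is shorter, and for CXCL12 it holds neither motif and serves as a contrast.
CXCL8: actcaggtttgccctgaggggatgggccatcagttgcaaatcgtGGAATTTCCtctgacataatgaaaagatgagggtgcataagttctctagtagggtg
CXCL1: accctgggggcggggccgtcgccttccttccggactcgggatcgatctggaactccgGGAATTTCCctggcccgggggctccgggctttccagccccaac
CXCL2: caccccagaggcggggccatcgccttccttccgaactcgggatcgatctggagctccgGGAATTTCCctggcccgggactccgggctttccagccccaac
CXCL3: ggagctccgGGAATTTCCctggcccggccg
CXCL5: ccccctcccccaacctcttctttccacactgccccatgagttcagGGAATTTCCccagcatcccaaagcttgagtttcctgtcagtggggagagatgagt
CXCL6: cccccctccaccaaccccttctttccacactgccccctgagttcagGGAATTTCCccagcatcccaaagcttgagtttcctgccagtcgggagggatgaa
CXCL10: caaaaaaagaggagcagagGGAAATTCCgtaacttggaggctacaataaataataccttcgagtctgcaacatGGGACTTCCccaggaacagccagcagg
CXCL11: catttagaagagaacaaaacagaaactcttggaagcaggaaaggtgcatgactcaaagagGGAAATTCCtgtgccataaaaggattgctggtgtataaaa
CXCL12: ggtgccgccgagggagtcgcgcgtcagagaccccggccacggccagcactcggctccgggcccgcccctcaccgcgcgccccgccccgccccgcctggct

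The stretches lie at chr4:74606151-74606250 (plus strand) for CXCL8, chr4:74734975-74735074 (plus) for CXCL1, chr4:74964948-74965047 (minus) for CXCL2 and chr4:74904464-74904493 (minus) for CXCL3. Those of CXCL5 and CXCL6 lie at chr4:74864430-74864529 (minus) and chr4:74702260-74702359 (plus). Those of CXCL10, CXCL11 and CXCL12 lie at chr4:76944746-76944845, chr4:76957259-76957358 and chr10:44880581-44880680, all on the minus strand. Promoter starts are those of RefSeq, while gene positions below are from GENCODE. The stretches of CXCL11 and CXCL12 therefore lie inside the gene positions given below, and those of CXCL6 and CXCL8 reach into them. GGAANTTCC was present in the promoters of 9 of the 46 members (CXCL1, CXCL2, CXCL3, CXCL5, CXCL6, CXCL8, CXCL10, CXCL11 and CCL1) and in 0.826% of all 35116 promoters of the same length. With positions counted in bases from the RefSeq start, its first base lay at -91 in CXCL8, at -78, -77 and -78 in CXCL1, CXCL2 and CXCL3, and at -90 and -89 in CXCL5 and CXCL6. In CXCL10 it lay at -176 with GGGANTTCC at -122, in CXCL11 at -75, and in CCL1 at -199. GGGANTTCC was found in 2 members, CXCL10 and CCL15, against 1.59% of all promoters. TGANTCA, a loose form of the AP-1 motif that is its own complement, was found in 8 members (CCL7, CCL24, CCL27, CCR2, CXCL8, CXCL11, CXCL14 and CXCR6) against 6.57% of all promoters. CCL7 matched only as TGATTCA and CXCR6 only as TGAATCA, whereas the others held the stricter AP-1 letters TGACTCA or TGAGTCA. GGAAGGAA, a short repeat of the ETS core that EWSR1::FLI1 binds in longer arrays, was found on either strand in 4 members (CCR6, CXCL1, CXCL2 and XCR1) against 3.06% of all promoters. None of these matches overlapped another in the same promoter, and a match gives letters and not a bound site. Members were counted as genes, whereas the shares are over promoter entries. Several carriers of GGAANTTCC are neighbouring genes with similar stretches and are not separate cases.

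**Figure D1:**
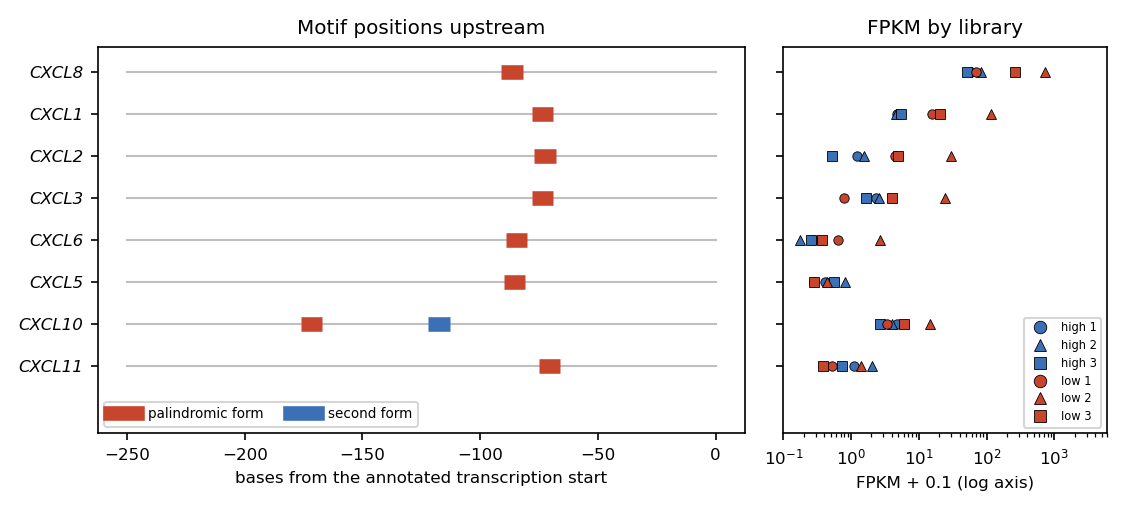
Left, positions of the palindromic motif (red) and the second form (blue) in bases from the annotated start of 8 chemokine genes, over 250 bases before the start. Right, FPKM + 0.1 of the same genes in each of the 6 libraries on a log axis (blue, EWSR1::FLI1high; red, EWSR1::FLI1low; circle, triangle and square for replicates 1, 2 and 3). In 6 of the 8 genes the red triangle of EWSR1::FLI1low replicate 2 is the highest point, CXCL5 and CXCL11 being the exceptions.

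The libraries held between 6980361 and 16658933 reads on genes, and whole reads could be recovered from the FPKM values, so that 3 reads, taken as the floor of detection, corresponded to between 0.0364 and 0.685 FPKM for the members that were tested. FLI1, whose values include the fusion transcript, was at 11.3, 12.7 and 14.2 FPKM in EWSR1::FLI1high and at 2.91, 4.29 and 3.68 FPKM in EWSR1::FLI1low, a log2 fold change of -1.57 (limma, adjusted p = 6.76e-04). Of 6 marker genes of the Ewing sarcoma line all were tested, and 5 fell in EWSR1::FLI1low. Leukocytes are a usual source of chemokines. Of 10 leukocyte markers none reached the level required for testing, and their summed values were between 2.48 and 3.37 FPKM in EWSR1::FLI1high and between 2.10 and 5.54 FPKM in EWSR1::FLI1low. In 5 endothelial markers the sum was between 1.02 and 1.54 FPKM in EWSR1::FLI1high and between 7.54 and 9.70 FPKM in EWSR1::FLI1low, most of it from KDR, and 5 epithelial markers summed to between 41.8 and 112 FPKM over all libraries with none called. In bulk RNA, fewer cells of a type and less RNA per cell cannot be told apart.

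Most of the family was silent or nearly so in these cells. Only 18 of the 66 members had a mean of at least 0.5 FPKM over the 6 libraries and were tested, 16 of them ligands. Of these 18, 6 had a mean under 0.5 FPKM in EWSR1::FLI1high and passed only through the EWSR1::FLI1low libraries (CX3CL1, CCL5, CCL7, CXCL6, CXCL14 and ACKR3), so that counts over the 18 lean toward higher values. The 48 members that were not tested reached at most 1.23 FPKM in any library (CCL3 in EWSR1::FLI1low replicate 2) and at most 26 reads (CCL28), and 38 of them had at most 10 reads in every library. CCL14 had no read in any library.

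The members that rose were all ligands. At an adjusted p under 0.01 (limma over 15504 genes, Benjamini-Hochberg), 3 of the 18 tested members rose in EWSR1::FLI1low, namely CXCL12, CX3CL1 and CCL2, where 4.51% of all tested genes rose. None of the 18 fell, where 3.37% of all tested genes did, and none was lower at an unadjusted limma p under 0.05 (18.7% of all genes) or with limma-voom on recovered reads (5.06% of all genes), whereas 9 were higher at the unadjusted p (15.6% of all genes). At an adjusted limma p under 0.05, 7 members were higher (9.87% of all genes), the additional genes being CCL7, CXCL1, CXCL2 and CXCL14. With limma-voom the same 3 genes passed an adjusted p of 0.01, against 6.10% of all genes. The log2 fold change was positive in 15 of the 18 members, with a median of 1.23 against -0.05 for all tested genes. In 9 of the 18 every EWSR1::FLI1low value lay above every EWSR1::FLI1high value (17.5% of all genes), in none did it lie below (23.6% of all genes), and in 9 the groups overlapped. Of the 12 tested members with a mean of at least 0.5 FPKM in EWSR1::FLI1high, 10 had a positive log2 fold change, 4 had groups that did not overlap, and 2 were called. The filter used the mean over all 6 libraries, and CCR6 was left untested at 0.460 FPKM. Its means were 0.528 FPKM in EWSR1::FLI1high and 0.392 FPKM in EWSR1::FLI1low, so these counts also lean toward higher values.

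**Figure D2:**
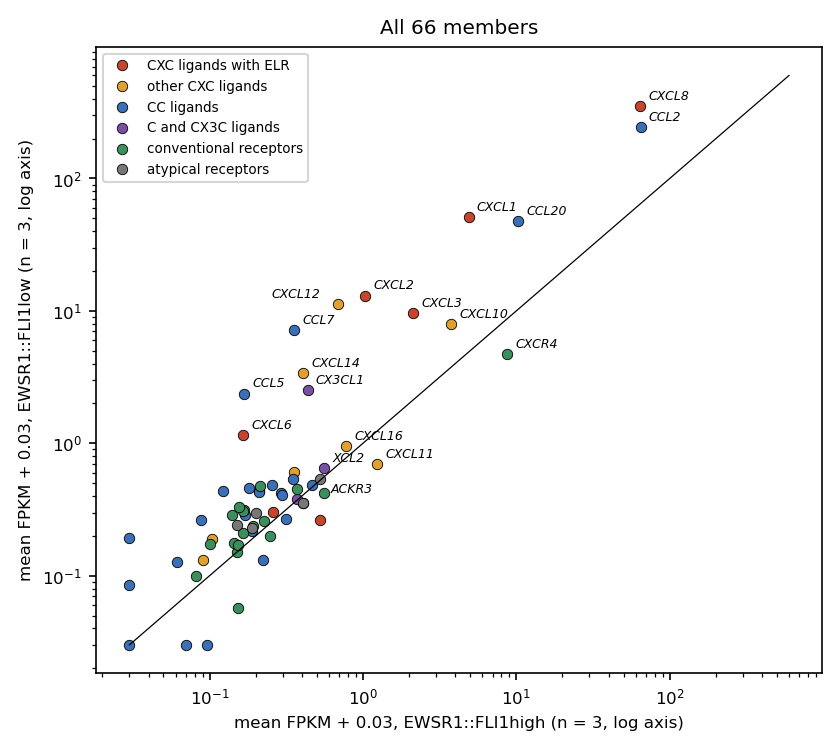
Mean FPKM + 0.03 of each of the 66 genes in EWSR1::FLI1high (horizontal) and EWSR1::FLI1low (vertical), n = 3 libraries each, on log axes, coloured by role, with the line of equal values. The tested genes are named, and CXCL8 and CCL2 stand at the upper right while most receptors lie at low values near the line.

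Summed over the 43 ligand genes, expression was 190, 168 and 123 FPKM in EWSR1::FLI1high and 294, 1442 and 554 FPKM in EWSR1::FLI1low. Every EWSR1::FLI1low sum was above every EWSR1::FLI1high sum, and replicate 2 of EWSR1::FLI1low stood far above the others. CXCL8, CCL2, CCL20 and CXCL1 together made up between 89.4% and 90.3% of the sum in EWSR1::FLI1high and between 85.1% and 92.1% in EWSR1::FLI1low. The 23 receptor genes summed to only 17.6, 12.4 and 8.50 FPKM in EWSR1::FLI1high and to 8.77, 13.5 and 7.76 FPKM in EWSR1::FLI1low, with overlapping groups.

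**Figure D3:**
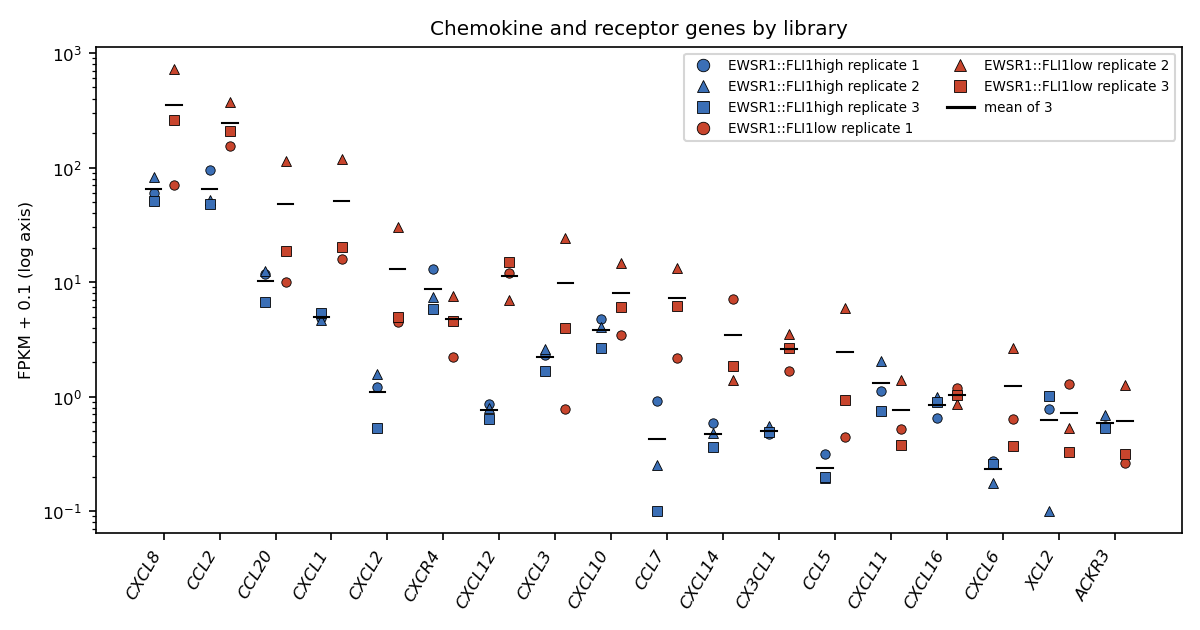
FPKM + 0.1 of the 18 tested members on a log axis, with 1 point per library (blue, EWSR1::FLI1high; red, EWSR1::FLI1low; circle, triangle and square for replicates 1, 2 and 3) and the mean of 3 libraries as a bar. The red triangles, EWSR1::FLI1low replicate 2, are the highest of their group in 14 of the 18 genes, while CXCL12, CXCL14 and CXCL16 have them lowest.

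CXCL12, the ligand of CXCR4 and ACKR3, showed the clearest rise. The gene (chr10:44865613-44881941, minus strand, GRCh37) was at 0.756, 0.688 and 0.537 FPKM in EWSR1::FLI1high and at 11.8, 6.91 and 14.8 FPKM in EWSR1::FLI1low. All 3 EWSR1::FLI1low libraries were far above the EWSR1::FLI1high libraries. The means were 0.660 ± 0.112 and 11.2 ± 4.0 FPKM (SD, n = 3), 16.9 times apart. On the log2(FPKM + 1) scale, which understates changes of low genes, the difference was 2.82 (SE 0.25, 95% interval 2.26 to 3.38, limma adjusted p = 2.11e-04). It rested on 42, 29 and 22 reads in EWSR1::FLI1high and 553, 300 and 1224 reads in EWSR1::FLI1low. CXCL12 was the only member called whichever library was left out, with log2 fold changes between 2.60 and 3.10 and limma adjusted p of at most 0.00228.

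CXCR4, the signalling receptor of CXCL12, was the only receptor expressed above 1 FPKM in every library. The gene (chr2:136871919-136876747, minus strand) had values of 12.9, 7.26 and 5.73 FPKM in EWSR1::FLI1high and of 2.13, 7.48 and 4.45 FPKM in EWSR1::FLI1low. The groups overlapped, since EWSR1::FLI1low replicate 2 exceeded 2 of the EWSR1::FLI1high libraries. The means were 8.62 ± 3.76 and 4.69 ± 2.68 FPKM (SD, n = 3), and the log2 difference of -0.80 (SE 0.38, 95% interval -1.66 to 0.05) did not pass the test (limma adjusted p = 0.170). CXCR4 made up 73.2%, 58.7% and 67.4% of all receptor FPKM in EWSR1::FLI1high and 24.3%, 55.3% and 57.3% in EWSR1::FLI1low. The ratio of CXCL12 to CXCR4, both in FPKM, was 0.0587, 0.0948 and 0.0937 in EWSR1::FLI1high and 5.52, 0.924 and 3.34 in EWSR1::FLI1low. Thus the receptor was the more abundant transcript in all EWSR1::FLI1high libraries, and the ligand in EWSR1::FLI1low replicates 1 and 3.

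ACKR3, the atypical receptor that removes CXCL12, was close to the limit of testing. ACKR3 (chr2:237476430-237490997, plus strand) was at 0.454, 0.597 and 0.430 FPKM in EWSR1::FLI1high and at 0.161, 1.16 and 0.214 FPKM in EWSR1::FLI1low. EWSR1::FLI1low held both the highest and the lowest values, and the log2 difference was -0.04 (SE 0.25, 95% interval -0.61 to 0.52, limma adjusted p = 0.931). The other 17 conventional receptors, among them CXCR1 and CXCR2 for the ELR ligands, CCR2 for CCL2, CCR6 for CCL20, CXCR3 for CXCL10 and CX3CR1 for CX3CL1, reached at most 0.647 FPKM (CCR6 in EWSR1::FLI1high replicate 2), and the other 4 atypical receptors at most 0.441 FPKM (ACKR4). No receptor other than CXCR4 had more than 20 reads in a library. Values this low do not show at this depth that a receptor was absent.

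CX3CL1 and CCL2 rose as well, although CX3CL1 was tested only through its level in EWSR1::FLI1low. CX3CL1, a chemokine anchored in the membrane and released by ADAM proteases (chr16:57406389-57418956, plus strand), was at 0.373, 0.454 and 0.389 FPKM in EWSR1::FLI1high and at 1.56, 3.42 and 2.53 FPKM in EWSR1::FLI1low. The groups did not overlap. The means were 0.405 ± 0.0426 and 2.5 ± 0.930 FPKM (SD, n = 3), and the log2 difference was 1.28 (SE 0.21, 95% interval 0.80 to 1.77, limma adjusted p = 0.00414). CX3CL1 was called in 1 of the 6 fits that leave out 1 library, that without EWSR1::FLI1low replicate 1, and had adjusted p values up to 0.0229 in the others (limma). The rise rested on 13, 12 and 10 reads in EWSR1::FLI1high against 46, 93 and 131 in EWSR1::FLI1low.

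CCL2, the main monocyte attractant of the CC class (chr17:32582293-32584227, plus strand), was among the highest chemokines in both conditions. CCL2 was at 94.5, 51.6 and 47.5 FPKM in EWSR1::FLI1high and at 154, 374 and 209 FPKM in EWSR1::FLI1low. The groups did not overlap, although EWSR1::FLI1high replicate 1 came near EWSR1::FLI1low replicate 1. The means were 64.5 ± 26.0 and 245 ± 114 FPKM (SD, n = 3), 3.80 times apart, and the log2 difference was 1.88 (SE 0.36, 95% interval 1.07 to 2.69, limma adjusted p = 0.00797). CCL2 was called without EWSR1::FLI1high replicate 1 or without EWSR1::FLI1low replicate 1, and was not called without any of the other 4 libraries, where the limma adjusted p reached 0.0433. No promoter entry was found for CCL2.

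**Figure D4:**
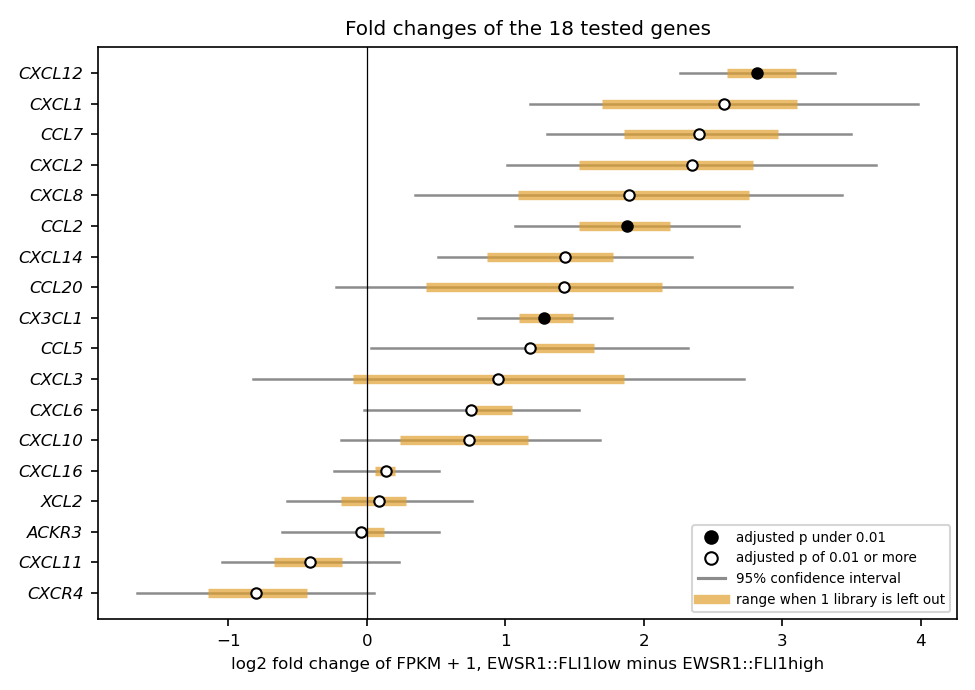
Log2 fold change of FPKM + 1 (EWSR1::FLI1low minus EWSR1::FLI1high) for the 18 tested members, with 95% confidence intervals (grey), the range over the fits that leave out 1 library (orange, over those fits in which the gene passed the level filter) and filled points for an adjusted p under 0.01 in limma. CXCL12 at 2.82 has a narrow interval, while CXCL1 at 2.58 and CXCL8 at 1.89 have intervals more than 2 log2 units wide.

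CCL7, another monocyte attractant, lies next to CCL2 in the same orientation (chr17:32597240-32599261). CCL7 was at 0.818, 0.154 and 0 FPKM in EWSR1::FLI1high, from 7, 1 and 0 reads, and at 2.07, 13.3 and 6.06 FPKM in EWSR1::FLI1low, from 15, 89 and 77 reads. Every EWSR1::FLI1low value was above every EWSR1::FLI1high value. The log2 difference was 2.40 (SE 0.49, 95% interval 1.30 to 3.5), just outside the limit (limma adjusted p = 0.0103). With a replicate block, an alternative fit, it passed (limma adjusted p = 0.00770). The genes CCL11, CCL8, CCL13 and CCL1 complete this cluster (chr17:32582293-32690252) and were not tested, their highest value being that of CCL8 at 0.878 FPKM in EWSR1::FLI1low replicate 2.

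The ELR ligands CXCL8, CXCL1, CXCL2, CXCL3 and CXCL6 lie with PF4, PPBP and CXCL5 in 1 cluster of 8 genes (chr4:74606236-74964913). All 5 that were tested had positive log2 fold changes and none was called in the reported fit. With a replicate block, an alternative fit, CXCL1 and CXCL2 passed the limit (limma adjusted p = 0.00782 and 0.00371). CXCL1 (chr4:74735110-74737025, plus strand), a neutrophil attractant, was at 4.72, 4.53 and 5.31 FPKM in EWSR1::FLI1high and at 15.8, 118 and 20.3 FPKM in EWSR1::FLI1low. The EWSR1::FLI1high libraries were close to each other, and all EWSR1::FLI1low libraries lay above them with replicate 2 far above the rest. The means were 4.85 ± 0.407 and 51.2 ± 57.4 FPKM (SD, n = 3) and the log2 difference was 2.58 (SE 0.62, 95% interval 1.18 to 3.98, limma adjusted p = 0.0203). Without EWSR1::FLI1low replicate 2 the log2 difference was smaller, 1.70, and the limma adjusted p was 9.62e-04. Without EWSR1::FLI1low replicate 1 it was 3.11 (limma adjusted p = 0.00637).

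CXCL2, a close relative of CXCL1 (chr4:74962757-74964913, minus strand), was measured at 1.11, 1.46 and 0.429 FPKM in EWSR1::FLI1high and at 4.39, 29.9 and 4.85 FPKM in EWSR1::FLI1low. The pattern was that of CXCL1, with no overlap and replicate 2 highest, and the log2 difference was 2.35 (SE 0.59, 95% interval 1.01 to 3.68, limma adjusted p = 0.0245). Without EWSR1::FLI1low replicate 2 it was 1.53 (limma adjusted p = 0.00412). CXCL2 and CXCL3 share 108 stretches of 75 bases, 8.93% of those of CXCL2 and 4.57% of those of CXCL3, so that some reads could have been counted for either gene.

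CXCL8 (chr4:74606236-74609433, plus strand), the strongest neutrophil attractant of the group, had the highest level of all members in 4 of the 6 libraries. CXCL8 was at 59.7, 81.8 and 51.3 FPKM in EWSR1::FLI1high and at 70.1, 723 and 260 FPKM in EWSR1::FLI1low. EWSR1::FLI1low replicate 1 lay within the range of the EWSR1::FLI1high libraries, while replicates 2 and 3 were well above it. The means were 64.3 ± 15.7 and 351 ± 336 FPKM (SD, n = 3), and the log2 difference of 1.89 (SE 0.68, 95% interval 0.35 to 3.43) did not pass the test (limma adjusted p = 0.0831). Without EWSR1::FLI1low replicate 1 it was 2.76 (limma adjusted p = 0.00163), and without replicate 2 it was 1.09 (limma adjusted p = 0.168).

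CXCL3 (chr4:74902306-74904524, minus strand), a neutrophil attractant, was at 2.23, 2.5 and 1.57 FPKM in EWSR1::FLI1high and at 0.683, 24.3 and 3.90 FPKM in EWSR1::FLI1low. EWSR1::FLI1low replicate 1 was the lowest of all 6 libraries and replicate 2 the highest. The log2 difference was 0.95 (SE 0.78, 95% interval -0.82 to 2.72, limma adjusted p = 0.433), and it was -0.10 without EWSR1::FLI1low replicate 2. CXCL6 (chr4:74702357-74714781, plus strand) was at 0.172, 0.0756 and 0.156 FPKM in EWSR1::FLI1high and at 0.542, 2.57 and 0.271 FPKM in EWSR1::FLI1low, with a log2 difference of 0.75 (limma adjusted p = 0.158), and it did not reach the level for testing when EWSR1::FLI1low replicate 2 was left out. CXCL5, whose promoter is close to that of CXCL6 in sequence, was not tested and was at 0.306, 0.706 and 0.467 FPKM in EWSR1::FLI1high and at 0.181, 0.343 and 0.181 FPKM in EWSR1::FLI1low.

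CCL20 and CCL5 were also highest in EWSR1::FLI1low replicate 2. CCL20 (chr2:228670455-228682280, plus strand), the ligand of CCR6 on lymphocytes and dendritic cells, was at 11.7, 12.4 and 6.59 FPKM in EWSR1::FLI1high and at 10.0, 115 and 18.5 FPKM in EWSR1::FLI1low. EWSR1::FLI1low replicate 1 lay within the range of the EWSR1::FLI1high libraries, and the log2 difference was 1.42 (SE 0.72, 95% interval -0.22 to 3.07, limma adjusted p = 0.202). CCL5 (chr17:34198495-34207797, minus strand), an attractant of T cells, was at 0.218, 0.0957 and 0.0985 FPKM in EWSR1::FLI1high and at 0.343, 5.86 and 0.832 FPKM in EWSR1::FLI1low. The groups did not overlap, but replicate 2 held most of the EWSR1::FLI1low level, and the log2 difference was 1.18 (SE 0.51, limma adjusted p = 0.139).

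CXCL10 (chr4:76942271-76944650, minus strand), an interferon-responsive ligand of CXCR3, was at 4.70, 3.92 and 2.55 FPKM in EWSR1::FLI1high and at 3.33, 14.5 and 5.91 FPKM in EWSR1::FLI1low. The groups overlapped, and the log2 difference was 0.74 (SE 0.41, 95% interval -0.19 to 1.68, limma adjusted p = 0.242). CXCL11 (chr4:76954835-76962568, minus strand), another CXCR3 ligand, was at 1.01, 1.96 and 0.645 FPKM in EWSR1::FLI1high and at 0.421, 1.29 and 0.281 FPKM in EWSR1::FLI1low. Its log2 difference of -0.41 (SE 0.28, 95% interval -1.05 to 0.23) also missed the limit (limma adjusted p = 0.347). Both genes overlap ART3 on the opposite strand, which was at no more than 0.651 FPKM.

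CXCL14 (chr5:134906369-134914969, minus strand), a chemokine of epithelial and stromal tissue, was at 0.483, 0.382 and 0.262 FPKM in EWSR1::FLI1high and at 7.01, 1.30 and 1.76 FPKM in EWSR1::FLI1low. The groups did not overlap, and here EWSR1::FLI1low replicate 1 stood out, at 4.59 times the mean of replicates 2 and 3. The log2 difference was 1.43 (SE 0.41, 95% interval 0.51 to 2.35, limma adjusted p = 0.0383), and without EWSR1::FLI1low replicate 1 it was 0.87 (limma adjusted p = 0.00695). CXCL16 (chr17:4636828-4643223, minus strand), a membrane-anchored ligand of CXCR6, was at 0.555, 0.888 and 0.806 FPKM in EWSR1::FLI1high and at 1.08, 0.761 and 0.935 FPKM in EWSR1::FLI1low. Its 95% interval for the log2 difference of 0.14 ran from -0.24 to 0.52 (limma adjusted p = 0.602), and the gene overlaps MED11, at 7.67 to 12.8 FPKM, on the opposite strand. XCL2 (chr1:168510006-168513235, minus strand), a C-class ligand, was between 0 and 0.914 FPKM in EWSR1::FLI1high and between 0.227 and 1.19 FPKM in EWSR1::FLI1low, with a log2 difference of 0.09 (SE 0.30, 95% interval -0.58 to 0.76, limma adjusted p = 0.872). XCL2 shares 120 stretches of 75 bases with XCL1.

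Much of the variation lay within the EWSR1::FLI1low group. EWSR1::FLI1low replicate 2 held the highest value of its group in 14 of the 18 tested members, where 26.2% of all tested genes did. EWSR1::FLI1low replicate 1 held the lowest value in 12 of the 18. The share of all tested genes lowest in this library was not computed, so the count does not show a trait particular to the family. Replicate 2 was at least 3 times the mean of replicates 1 and 3 in 11 of the 18 members, whereas 1.35% of all tested genes were. The ratio was 10.6 for CXCL3, 9.97 for CCL5, 8.03 for CCL20, 6.49 for CXCL1 and 6.47 for CXCL2. It was 6.33 for CXCL6, 6.20 for the receptor ACKR3, 4.38 for CXCL8, 3.69 for CXCL11, 3.27 for CCL7 and 3.15 for CXCL10. CCL2 at 2.06 and CX3CL1 at 1.67 varied less, and the ratio was under 1 for CXCL12 at 0.520 and CXCL14 at 0.296. The median over the 18 members was 3.48, against 1.00 over all tested genes. Among the 12 tested members with a mean of at least 0.5 FPKM in EWSR1::FLI1high, replicate 2 was highest in 9 and the ratio reached 3 in 7. The genes with the palindromic motif in the promoter and a tested value (CXCL8, CXCL1, CXCL2, CXCL3, CXCL6, CXCL10 and CXCL11) all had ratios of at least 3.15, as did CCL20 and CCL7, whose promoters held neither form, CCL5, which had no promoter entry, and ACKR3. The motif carriers that were not tested had lower ratios, CXCL5 at 1.90 and CCL1 at 0.723, the latter from at most 3 reads. The level filter itself used replicate 2, and CCL5, CXCL6 and ACKR3 did not pass it without that library. Their high ratios, and so part of the counts over the 18 members, were favoured by the filter. The leukocyte marker sum was 2.70 FPKM in this library and 5.54 FPKM in replicate 1, and FLI1 was at 4.29 FPKM in it, the highest of its group. Their part in the pattern was not tested.

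NF-kB is a transcription factor family that acts on many of the ELR and CC chemokine genes. All 18 genes of a list of NF-kB subunits, inhibitors and kinases were tested, and none was called in either direction (limma adjusted p under 0.01). At an unadjusted limma p under 0.05, 2 were higher and 2 lower, where 15.6% and 18.7% of all tested genes were, and with limma-voom 1 was higher and none lower, where 6.10% and 5.06% were. The median log2 fold change was 0.08. NFKBIZ, an inducible nuclear cofactor, was at 9.17, 12 and 8.98 FPKM in EWSR1::FLI1high and at 22.4, 51.2 and 23.3 FPKM in EWSR1::FLI1low, with a log2 difference of 1.5 (limma adjusted p = 0.0115). TRAF1, an adaptor of TNF receptors, was at 3.35, 4.72 and 3.58 FPKM in EWSR1::FLI1high and at 5.46, 37.2 and 12.8 FPKM in EWSR1::FLI1low, with a log2 difference of 1.63 (limma adjusted p = 0.0599). NFKBID, an inhibitor of the family, and TRAF2, an adaptor, had log2 differences of -0.76 and -0.73 (limma adjusted p = 0.0183 and 0.0481). EWSR1::FLI1low replicate 2 held the highest value of its group in 14 of the 18 genes, where 26.2% of all tested genes had it, and reached 3 times the mean of the other two in 3. BIRC3 and TNFAIP3, inducible regulators chosen after their values were seen, were at 5.34, 76.6 and 19.3 FPKM and at 7.14, 37.4 and 16.3 FPKM in EWSR1::FLI1low, against no more than 14.7 and 10.6 FPKM in EWSR1::FLI1high. The log2 differences of BIRC3 and TNFAIP3 were 0.59 and 0.72 (limma adjusted p = 0.609 and 0.311). The order of the EWSR1::FLI1low libraries was the same in BIRC3, TNFAIP3 and TRAF1 as in CXCL8, CXCL3 and CCL20. GNAI2 and RAC1, signalling genes outside this list, also had this order, whereas BCL3, CHUK, IKBKB, NFKBID and REL of the list did not. The share of all tested genes with this order was not computed. The values of the NF-kB list were measured beside the chemokines, and their part was not tested.

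**Figure D5:**
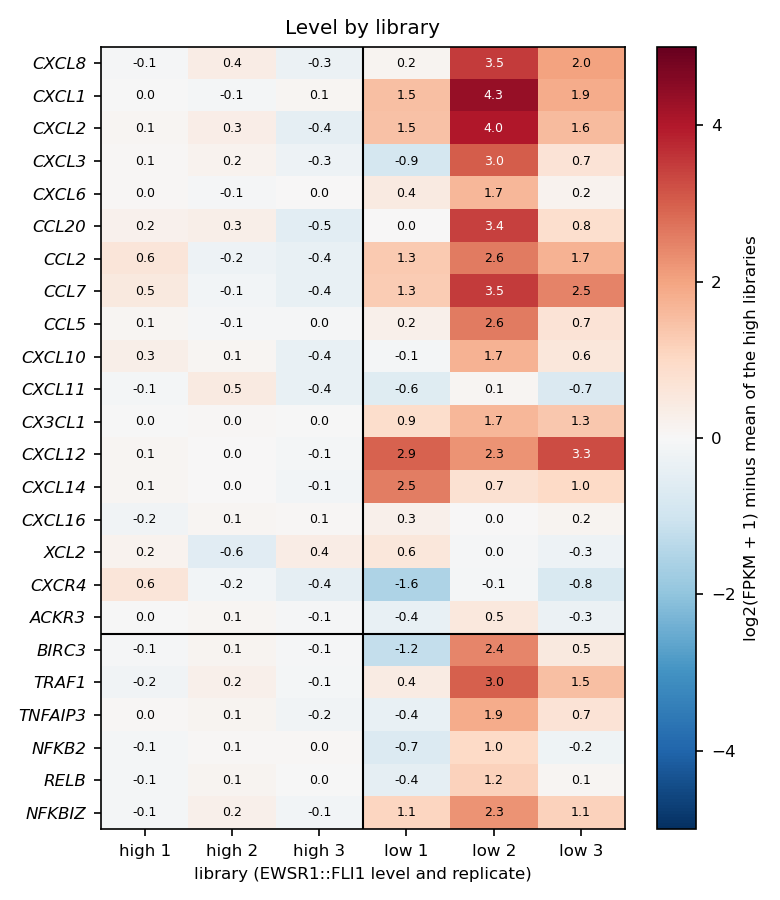
Level of the 18 tested members and, under the line, 6 genes of the NF-kB list in each of the 6 libraries, as log2(FPKM + 1) minus the mean of the EWSR1::FLI1high libraries. BIRC3, TNFAIP3, NFKB2 and RELB were chosen after their values were seen. The 6 genes shown all had positive log2 fold changes, whereas 7 of the 18 genes of the list had negative ones. The column of EWSR1::FLI1low replicate 2 is darkest for CXCL1 and CXCL2, while CXCL12 is raised in all 3 EWSR1::FLI1low columns.

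Most genes that act downstream of chemokine receptors were not called. Of 40 genes for G proteins, arrestins, receptor kinases, RGS proteins and effectors, 37 were tested, 4 rose and 2 fell, where 4.51% and 3.37% of all tested genes did, with a median log2 fold change of 0.14. RGS4 and RGS5, which speed the switch-off of inhibitory G proteins, rose by log2 fold changes of 2.54 (limma adjusted p = 9.51e-05) and 1.74 (limma adjusted p = 2.12e-04). RGS4 was at 14, 11.9 and 12.4 FPKM in EWSR1::FLI1high and at 72.3, 72.5 and 93.7 FPKM in EWSR1::FLI1low. The G protein subunits GNG2 and GNAI1 rose by log2 fold changes of 1.22 (limma adjusted p = 0.00261) and 1.26 (limma adjusted p = 0.00644). RGS1, known as a brake on chemokine signals in lymphocytes, was at 11.2, 13.1 and 9.57 FPKM in EWSR1::FLI1high and at 1.76, 3.30 and 1.28 FPKM in EWSR1::FLI1low, a log2 fold change of -2.02 (limma adjusted p = 8.72e-04). GRK5, a kinase that phosphorylates activated receptors, fell with a log2 fold change of -1.21 (limma adjusted p = 0.00260). In this list EWSR1::FLI1low replicate 2 was highest in 13 of the 37 tested genes, beside the 26.2% of all genes.

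Proteins that cut, shed or pair with chemokines formed a shorter list of 9 genes, 8 of them tested. MME, a membrane peptidase, rose by a log2 fold change of 2.90 (limma adjusted p = 7.95e-05) and FAP, a peptidase related to DPP4, by 1.66 (limma adjusted p = 0.00901). HMGB1, a nuclear protein that can bind CXCL12 outside the cell, fell with a log2 fold change of -1.08 (limma adjusted p = 0.00639). DPP4, which trims CXCL12 and other chemokines, had a log2 fold change of -1.02 and was not called (limma adjusted p = 0.0782). The median of the list was 0.30.

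The CC ligand cluster from CCL5 to CCL4 (chr17:34198495-34433014) held 8 members with only CCL5 tested. CX3CL1 lies between CCL22 and CCL17 (chr16:57392695-57449975), neither of which was tested, and the highest value of CCL22 was 0.347 FPKM and that of CCL17 0.420 FPKM. By comparison, 5 of the 8 members of the ELR cluster were tested. CCL3 and CCL4 have near-identical copies in the genome, so that their values are uncertain.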

How the data were processed

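RNA was measured in 6 libraries (ScriptSeq v2, with ribosomal RNA removed). Per the submitters' processing notes and the study's methods, reads were aligned to GRCh37 with STAR 2.5.0b, and Cufflinks 2.2.1, bedtools 2.17.0 and DESeq2 1.6.3 were used. The authors deposited FPKM per gene symbol and library, and a table of their DESeq2 comparison, from which only the mean normalized count signal deposited by the authors was used. Its fold changes and p-values were not used. Whether counting used the strand is not given in the sources used here.

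Whole reads were recovered from each FPKM value with the mean normalized count (100% of values whole within 0.1 reads), at 6980361 to 16658933 reads per library. Floors (3 reads) cover counting error only, whereas the 95% intervals of log2 differences come from limma and cover the spread between libraries. The 15504 genes whose FPKM averaged 0.5 or more entered limma 3.58.1 in R 4.3.3 (lmFit, eBayes with trend), as log2(FPKM + 1), with Benjamini-Hochberg adjustment over all of them and a limit of 0.01. The size limit of the study, a log2 fold change of 2.5, was not applied. limma-voom on recovered reads was an alternative. The steps were tested on simulated data. Python 3.11.15 with pandas 2.3.3 was used for the rest. No 2 replicates had counts within sampling noise of each other (chi-square per degree of freedom 4.25 to 31.5), so none was treated as a library deposited again, which does not show that they are independent cultures. Gene positions come from GENCODE v44 (lifted to GRCh37), while promoter starts are those of RefSeq.

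Members were all symbols of the family. Values by library are given for members with an adjusted p under 0.01, for CXCL12, CXCR4 and CCL2, for other members with a mean of at least 1 FPKM in either condition, and for a few that complete a pair or cluster. In each pathway list, genes with the smallest adjusted p are named. Some other genes of these lists were named, or shown in a figure, after their values were seen. Members, lists and tests were chosen with earlier results of these data known. Other alternatives were another pseudocount (0.1), filter, scaling, variance prior, limit (0.05) or replicate block, and leaving out each library. Isoforms and other assays were not analysed here.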

Additional observations from a re-analysis of the deposited data

How the results depend on the processing

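CXCL12 rose under every alternative tried. The count of members that rose, 3 in the reported fit, was 1 with no filter on low values, 7 at an adjusted limma p under 0.05 and between 1 and 7 when 1 library was left out. It was 7 without EWSR1::FLI1low replicate 1 and 1 (CXCL12) without EWSR1::FLI1high replicate 2 or 3 or EWSR1::FLI1low replicate 3. With a replicate block it was 6, adding CCL7, CXCL1 and CXCL2, while the count of all tested genes that rose went from 700 to 916. The replicate numbers were not taken to pair the libraries, since deviations of same-numbered libraries correlated at 0.27, 0.09 and 0.12, with 1 of the 3 under 0.1. The other 6 pairs lay between -0.29 and 0.19, 5 of them negative, and all libraries but EWSR1::FLI1high replicate 3 and EWSR1::FLI1low replicate 2 correlated best with their own number. The sample names number the experiments alike in both conditions but do not say that same-numbered libraries were prepared together. Pairing was therefore not settled. No member was called lower under any alternative (limma). When 1 library was left out, the log2 fold change of ACKR3 ran from -0.07 to 0.12, that of CXCL3 from -0.10 to 1.86 and that of XCL2 from -0.19 to 0.28. That of ACKR3 turned positive, to 0.12 and 0.09, without EWSR1::FLI1low replicate 1 or 3, that of CXCL3 was -0.10 without EWSR1::FLI1low replicate 2, and that of XCL2 was -0.0015 with quantile normalization and -0.19 without EWSR1::FLI1high replicate 2. The cause was not tested. Of 242 values of the 18 members under the alternatives, 215 kept their side of the limit and their direction, 11 passed it newly, 11 no longer did and 5 changed sign, and 10 more could not be computed because the gene fell under the level filter. Over all genes the 700 that rose became 456 with no filter, 916 with the replicate block, 1530 at 0.05 and 308 to 1527 with 1 library left out. The 522 that fell became 297 with no filter, 784 with limma-voom, 1000 with quantile normalization, 786 with the replicate block, 1537 at 0.05 and 157 to 807 with 1 library left out. The scaling alternatives moved the median of all genes by less than 0.1. Depth limited the members under 0.5 FPKM, of which 38 had at most 10 reads in every library.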
